A study of Mus musculus with 7 samples.

Results

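The genes described here are 8 genes of Schwann cells and of the myelin they make, namely Mbp, Pmp22, Prx, Mal, S100b, Sox10, Egr2 and Mag. A gene was taken from the array when a row carried its symbol alone, and the row with the highest mean log2 intensity stood for it. Of the 8 genes, 7 had such a row, among 19938 genes in all. Each of the 7 had 1 row, and Prx, the periaxin gene of the myelin sheath, had none under this rule and is not analysed here. A filter that asks for the median intensity of an array on at least 1 array kept 6 of the 7, and 12102 of the 19938. Mag stayed below it on all 7 arrays.

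The muscle was the left plantaris of the calf, largely of fast fibres, from C57BL/6J males at 5 months of age. All animals had 2 weeks of hind limb suspension, and the muscle was taken on days 1, 3, 5, 7, 10 and 14 of regrowth (the reloaded days), with d0, the last day of suspension, as control. Pooled RNA of 6 animals went on 1 Affymetrix Mouse Gene 1.0 ST array a day, so there are 7 arrays and no replicates. A difference between 2 arrays has no error of its own, all 6 ratios share the d0 array, and precision is limited by the few arrays. In a pool of whole muscle, fewer cells of a type and less RNA per cell cannot be told apart.

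Schwann cells ensheath the axons of peripheral nerve, and those around large motor and sensory axons wrap them in myelin. Sox10, a transcription factor of the neural crest, marks Schwann cells throughout their life. Together with Egr2 (Krox20) it switches on the genes for myelin proteins and lipids. A muscle holds these cells in its nerve branches, and non-myelinating Schwann cells cap the neuromuscular junction. Several of the genes are not confined to Schwann cells: fibroblasts express Pmp22, adipocytes S100b, and Egr2 is an inducible factor of many cell types.

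An order of arrays, noticed once the values were seen, was shared by 5 of the 7 genes. Mbp, Pmp22, Mal, S100b and Sox10 had their 2 highest intensities on the d1 and d14 arrays, with lower values on the arrays between. Over all 19938 genes, 3.25% had d1 and d14 as their 2 highest arrays. None of the 7 genes differed from d0 by 1.5-fold on any day. Egr2 took another course, with d0 as its lowest array and a nearly level course afterwards, and Mag had its lowest value at d10.

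The promoters of 3 of the genes with the shared order are shown beside that of Mag, which did not share it. Each is the 250 bases before the first start site in RefSeq's promoter table of GRCm38.p6, read 5′ to 3′ on the strand of the gene. Sox10 has no entry in that table and the Mbp sequence is not shown. Pmp22 lies on the + strand (chr11:63128732-63128981), Mal on the - strand (chr2:127656696-127656945), S100b on the + strand (chr10:76253586-76253835) and Mag on the - strand (chr7:30914923-30915172). Capitals mark a match to the SOX motif.
Pmp22: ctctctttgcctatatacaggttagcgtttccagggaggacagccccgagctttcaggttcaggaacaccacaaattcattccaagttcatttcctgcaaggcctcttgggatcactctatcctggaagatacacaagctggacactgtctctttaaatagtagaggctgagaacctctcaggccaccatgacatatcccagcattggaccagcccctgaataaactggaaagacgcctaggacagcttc
Mal: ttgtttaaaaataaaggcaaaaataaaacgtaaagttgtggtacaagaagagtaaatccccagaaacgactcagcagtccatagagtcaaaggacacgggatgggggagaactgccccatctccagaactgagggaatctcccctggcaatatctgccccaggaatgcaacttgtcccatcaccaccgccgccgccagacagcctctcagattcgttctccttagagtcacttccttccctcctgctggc
S100b: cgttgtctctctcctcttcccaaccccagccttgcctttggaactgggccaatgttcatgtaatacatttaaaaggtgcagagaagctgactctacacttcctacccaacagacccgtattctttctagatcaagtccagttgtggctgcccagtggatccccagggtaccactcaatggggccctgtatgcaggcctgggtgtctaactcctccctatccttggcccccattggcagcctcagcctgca
Mag: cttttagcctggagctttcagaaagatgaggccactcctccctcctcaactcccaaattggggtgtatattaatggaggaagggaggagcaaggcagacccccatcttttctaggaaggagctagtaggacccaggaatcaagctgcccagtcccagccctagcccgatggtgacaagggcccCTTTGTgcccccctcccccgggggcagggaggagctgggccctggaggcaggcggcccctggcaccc

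The letters searched on both strands were GCGNGGGCG for EGR factors, ACAAAG and AACAAT for SOX factors, and TATAAA for the TATA box. The Mag promoter held 1 match, to ACAAAG read on the opposite strand, 67 bases before the start. The promoters of Pmp22, Mal and S100b held no match to any of the 4 motifs in this window. Of 32851 promoter windows of the same length, 16.5% held ACAAAG, 9.42% AACAAT, 4.70% the EGR letters and 12.4% the TATA letters. A match describes the letters and is no evidence of binding.

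Among the structural proteins of compact myelin, Mbp encodes myelin basic protein, which holds the cytoplasmic faces of the membrane together. By array, its intensity was 320.4 for d0, 375.3 for d1, 288.1 for d3, 328.0 for d5, 287.9 for d7, 291.3 for d10 and 393.7 for d14. The d14 and d1 arrays stood above the other 5, and d3, d7 and d10 lay close together at the low end. The log2 ratio to d0 was 0.23 at d1 and 0.30 at d14, and between -0.15 and 0.03 on the 4 days between. From its highest array (d14) to its lowest (d7) Mbp differed by 0.45 on the log2 scale, or 1.37-fold. For that pair of arrays, log2 differences of the filtered genes had a robust SD of 0.105, and 76.9% of the filtered genes had a smaller range over the 7 arrays.

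Pmp22 encodes peripheral myelin protein 22, a membrane protein of compact myelin whose dosage underlies inherited neuropathies. The d0 array gave an intensity of 3935.1, d1 gave 4170.8, d3 3764.9, d5 3760.0, d7 3663.0, d10 3639.4 and d14 4375.7. As in Mbp, d14 was highest and d1 next, and in Pmp22 d0 came after them, with the 4 days between lower than d0. The log2 ratio to d0 was 0.08 at d1 and 0.15 at d14, against -0.06, -0.07, -0.10 and -0.11 at d3, d5, d7 and d10. The range was small, at 0.27 between d14 and d10, where the robust SD over the filtered genes was 0.100, and 37.4% of the filtered genes had a smaller one.

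Mal encodes a raft-associated proteolipid of myelin and of epithelial apical membranes. Its intensity was 143.9 for d0, 197.9 for d1, 163.7 for both d3 and d5, 159.2 for d7, 152.3 for d10 and 193.7 for d14. The d1 and d14 arrays again stood above the rest, and d0 was lowest. The log2 ratio to d0 was 0.46 for d1, 0.19 for d3 and d5, 0.15 for d7, 0.08 for d10 and 0.43 for d14. At d1 Mal was 1.38-fold above d0, and the robust SD of that pair of arrays was 0.179.

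**Figure D1:**
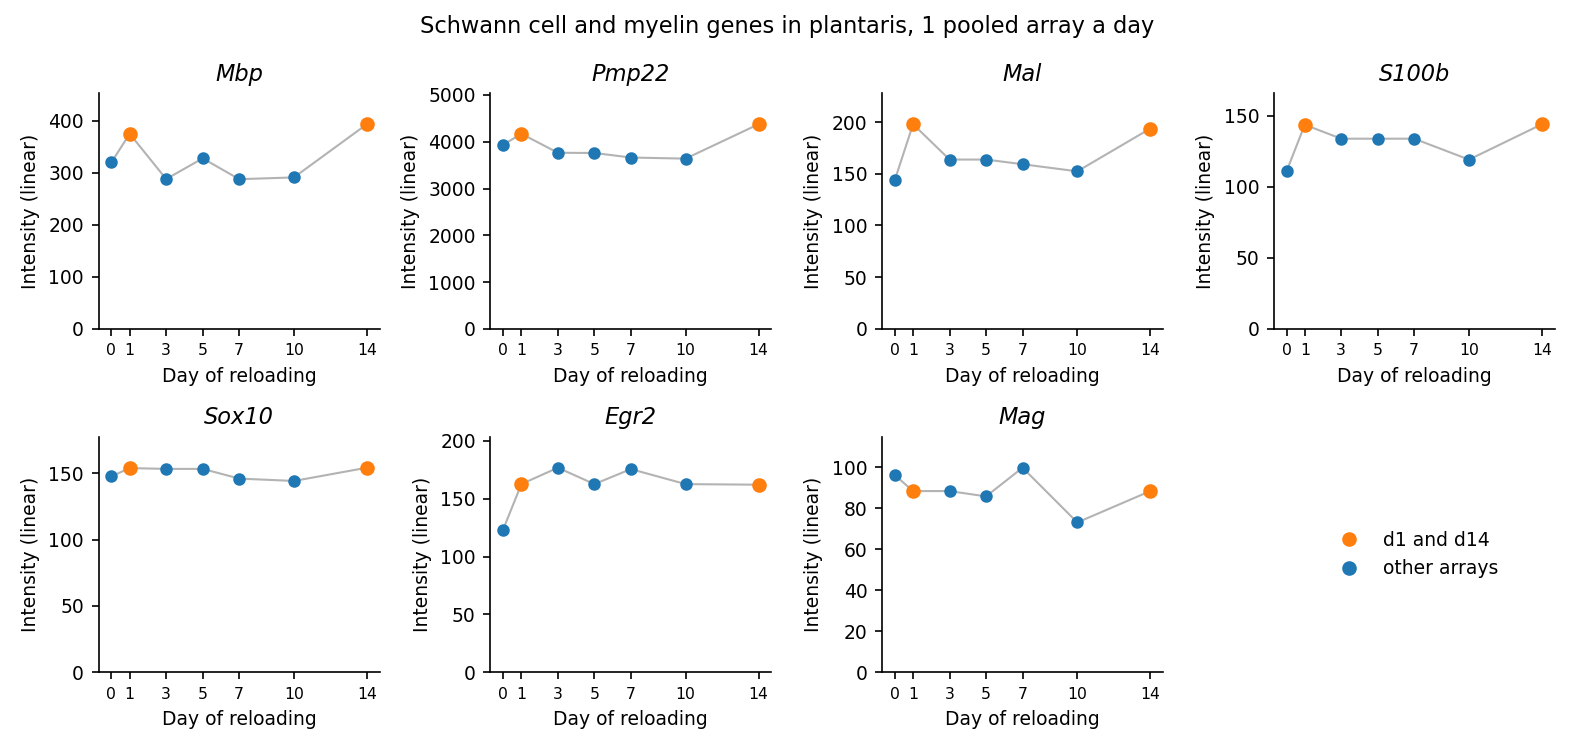
Intensity (linear, from 0) of the 7 genes against the day, 1 pooled array a point, with the d1 and d14 arrays in orange. Mbp, Pmp22, Mal, S100b and Sox10 have both orange points above all others, from 375.3 and 393.7 in Mbp to 153.9 and 154.2 in Sox10, where d3 and d5 (153.3) are nearly as high.

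Mag encodes myelin-associated glycoprotein, an adhesion protein of the Schwann cell membrane that faces the axon. It had an intensity of 96.2 at d0, 88.4 at d1, d3 and d14, 85.8 at d5, 99.8 at d7 and 73.1 at d10. The d10 array was lowest and d7 highest, a range of 0.45 on the log2 scale. On all arrays Mag was below the array median of 128.1 to 131.8, and detection above background could not be assessed from these values. The lower quartile of all rows was also lowest on the d10 array, at 54.9, against 60.3 on the d0 array, and its part in the Mag value was not tested.

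S100b encodes a calcium-binding protein long used to stain Schwann cells, including those at the neuromuscular junction. Its intensity was 110.7 at d0, 143.5 at d1, 133.7 at d3, d5 and d7, 119.0 at d10 and 143.9 at d14. The d0 array was lowest, d10 next, and d1 and d14 were level with each other. The log2 ratio to d0 was 0.37 at d1, 0.27 at d3, d5 and d7, 0.10 at d10 and 0.38 at d14.

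Of the 2 transcription factors, Sox10 varied least among the 7 genes. Its intensity was 147.7 for d0, 153.9 for d1, 153.3 for d3 and d5, 146.0 for d7, 144.2 for d10 and 154.2 for d14. Its whole range was 0.0967 on the log2 scale, about the robust SD of 0.100 over the filtered genes for the same pair of arrays (d14 and d10), and 3.43% of the filtered genes had a smaller range. The order of arrays in Sox10 thus rests on differences of 1.07-fold or less, with d1, d3, d5 and d14 almost level, and after quantile normalization d5 and d14 were its highest arrays.

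Egr2 had an intensity of 123.4 on the d0 array, 162.7 on d1, 176.9 on d3, 162.7 on d5, 175.7 on d7, 162.7 on d10 and 162.2 on d14. All 6 reloaded days were above d0, by log2 ratios between 0.39 at d14 and 0.52 at d3. Among the reloaded days the values spread by far less, from 162.2 to 176.9. It had the largest log2 range of the 7 genes, at 0.52, and 84.6% of the filtered genes had a smaller one.

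Identical values on several arrays run through the deposited table. Of the 7 genes, S100b, Egr2 and Mag had 3 arrays at 1 value, and Mal and Sox10 had 2. Over the 19938 genes, 65.2% had at least 2 arrays at 1 value to the deposited decimal and 36.5% at least 3. The step that produced these ties was not tested, and neighbouring days with 1 value carry no order.

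Counted against d0, 0 of the 7 genes were 1.5-fold higher or lower on any of the 6 days. Of all genes with a row, 2.19%, 1.21%, 0.958%, 1.66%, 1.63% and 0.532% were at least 1.5-fold higher, in order of day. The shares that were 1.5-fold lower were 3.86%, 3.31%, 3.46%, 3.35%, 4.32% and 3.37% in the same order. The median log2 ratio of the 7 genes was 0.23 at d1, 0.05 at d3, d5 and d7, -0.03 at d10 and 0.30 at d14. The median over all genes lay between 0.02 at d5 and 0.07 at d7, with 0.04 at both d1 and d14. Above d0 at any size were 6 of the 7 genes at d1 and at d14, where 58.6% and 60.8% of all genes were, and 3 of the 7 at d10, where 56% were. At d3, d5 and d7 the counts were 4, 5 and 4 of the 7, beside 59.2%, 53.3% and 62.6% of all genes.

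**Figure D2:**
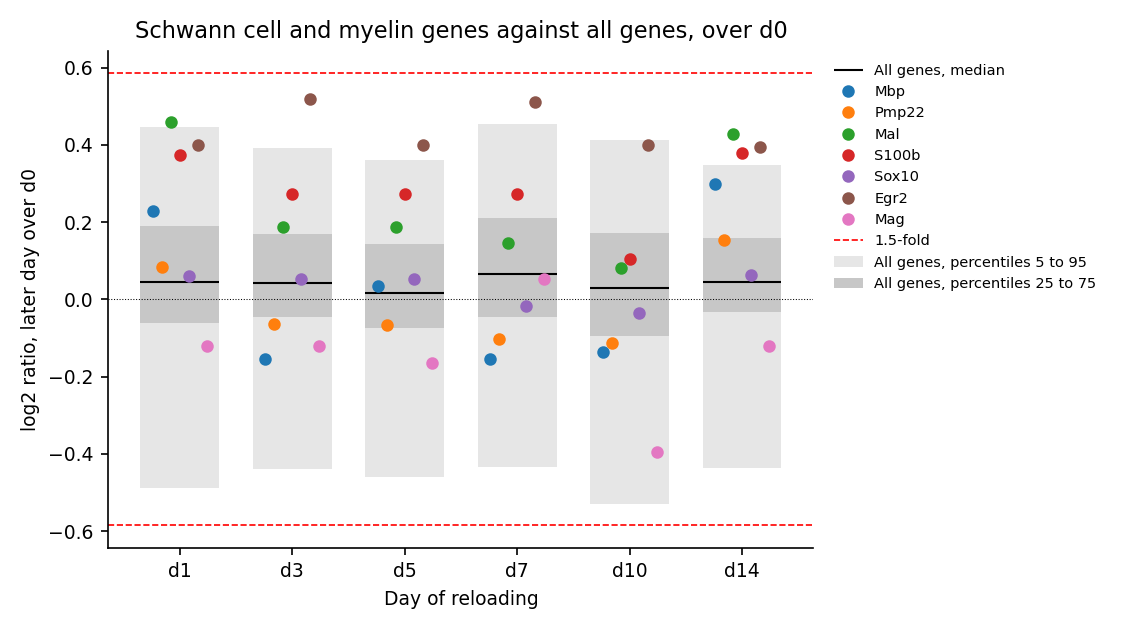
The log2 ratio of each later day over d0 for the 7 genes (coloured points), on the spread of all 19938 genes (light bars for percentiles 5 to 95, darker bars for the middle quartiles, black line for the median) and the 1.5-fold bounds (dashed). All points lie inside the bounds, Egr2 is highest at d3 (0.52) and Mag lowest at d10 (-0.40).

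The d1 and d14 arrays are not a common pair over the array as a whole. The pair ranked 11th of the 21 pairs by the number of genes whose 2 highest values it held, 647 of 19938. The most common pairs were d3 with d7 (11.0%) and d1 with d10 (10.8%). Among the genes past the filter the share for d1 and d14 was 4.38%. This measure was chosen after the values were seen, and the arrays of the pair were singled out by these genes.

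**Figure D3:**
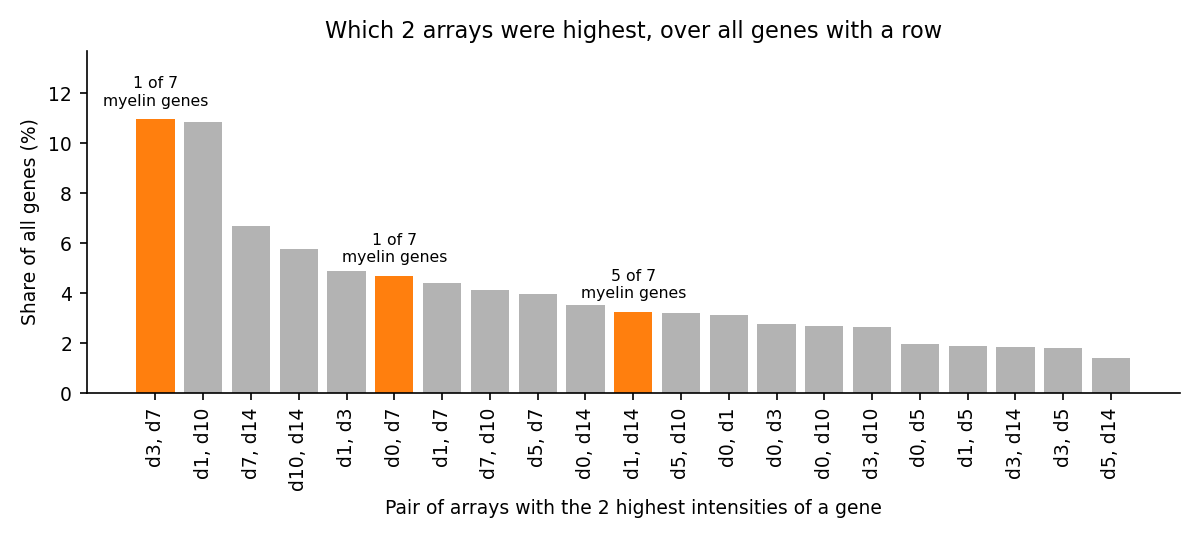
Share of all 19938 genes (percent) whose 2 highest intensities fell on each pair of arrays, with pairs that hold any of the 7 genes in orange. The pair d1 and d14 held 3.25% of all genes and 5 of the 7, while Egr2 was in the pair d3 and d7 and Mag in the pair d0 and d7.

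Other Schwann cell genes were read from 7 lists of 73 genes, of which 67 had a row and 43 passed the filter. Of the 67, 9 (13.4%) had d1 and d14 as their 2 highest arrays, against 3.25% of all genes. By list they were 3 of 9 genes of peripheral myelin, 2 of 4 of galactolipid synthesis, 2 of 15 of the node and paranode, 1 of 7 neuropathy genes, 1 of 9 of non-myelinating and immature cells and 0 of 7 of repair cells. They were Drp2, Cldn19, Cmtm5, Ugt8a, Fa2h, Cdh19, Gldn, Cadm1 and Sbf2. Ugt8a, Cdh19 and Gldn lay below the filter. The count goes by rank alone, and the margins differed. Drp2 had 307.2 at d1 and 314.0 at d14, against 246.8 on its next array. In Cadm1 the values were 301.9 and 300.1, against 294.2, and in Sbf2 381.2 and 377.1, against 370.4. Cldn19, Cmtm5, Cadm1 and Sbf2 are named for this order, seen in their values. In the lists of other cells and genes the order was held by 2 of 8 adipocyte genes, 1 of 5 perineurium genes, 1 of 9 immediate early genes and 1 of 12 close relatives of the 7 genes. It was held by 0 genes of central myelin, endothelium, fibroblasts, macrophages, neutrophils, T cells and fast fibres. Whether the share differs between lists was not tested.

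Drp2 had the largest ratios to d0 of these 9 genes on both days. It encodes dystrophin-related protein 2, which periaxin anchors in the Schwann cell membrane. Its intensity was 212.0 for d0, 307.2 for d1, 218.3 for d3, 246.8 for d5, 224.8 for d7, 243.5 for d10 and 314.0 for d14. The log2 ratio to d0 was 0.54 at d1 and 0.57 at d14, just within the 1.5-fold bound. Cdh19, a cadherin of Schwann cell precursors, had 102.9 at d1 and 77.3 at d14, against 57.7 to 72.9 on the other 5 arrays, all below the filter. Fa2h, which makes the 2-hydroxy fatty acids of myelin galactolipids, had 129.7 at d1 and 134.1 at d14, against 108.8 to 125.7 on the rest. It reached the filter at d1 and d14 alone. Cldn19, a claudin of Schwann cell tight junctions, had 222.1 and 234.6 on those days, with 216.5 on 4 arrays and 187.1 at d10.

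Median log2 ratios of the 7 lists lay between -0.09 and 0.27 over the 6 days. The 9 measured genes of peripheral myelin had a median log2 ratio of 0.12 at d1 and 0.24 at d14, and between 0.03 and 0.09 on the days between. At d1 all 9 were above d0, and at d14 8 were above it and none below. The 6 of them past the filter had a median of 0.16 at d1, 0.02 at d3 and 0.07 at d5 and d7. Their median was 0.16 at d10, as high as at d1, and 0.24 at d14. Cntn2, an adhesion protein of the juxtaparanode, was the only gene of these lists 1.5-fold lower, at 107.2 at d10, against 160.9 at d0. The 4 that were 1.5-fold higher on some day were Ncam1 at d1 (0.74) and Gjb1 (0.59), Pou3f2 (0.65) and Sh3tc2 (0.68) at d7. Pou3f2 and Sh3tc2 passed the filter on the d7 array alone, at 149.6 and 141.1. On the other arrays they had 91.4 to 120.4 and 87.9 to 116.2, below the array medians. Gjb1 encodes the gap junction protein connexin 32 of myelinating Schwann cells, and its intensity of 56.4 to 97.8 stayed below the filter. Pmp2, the fatty acid binding protein of peripheral myelin, had 65.5 at d7 to 97.6 at d5, also below it.

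**Figure D4:**
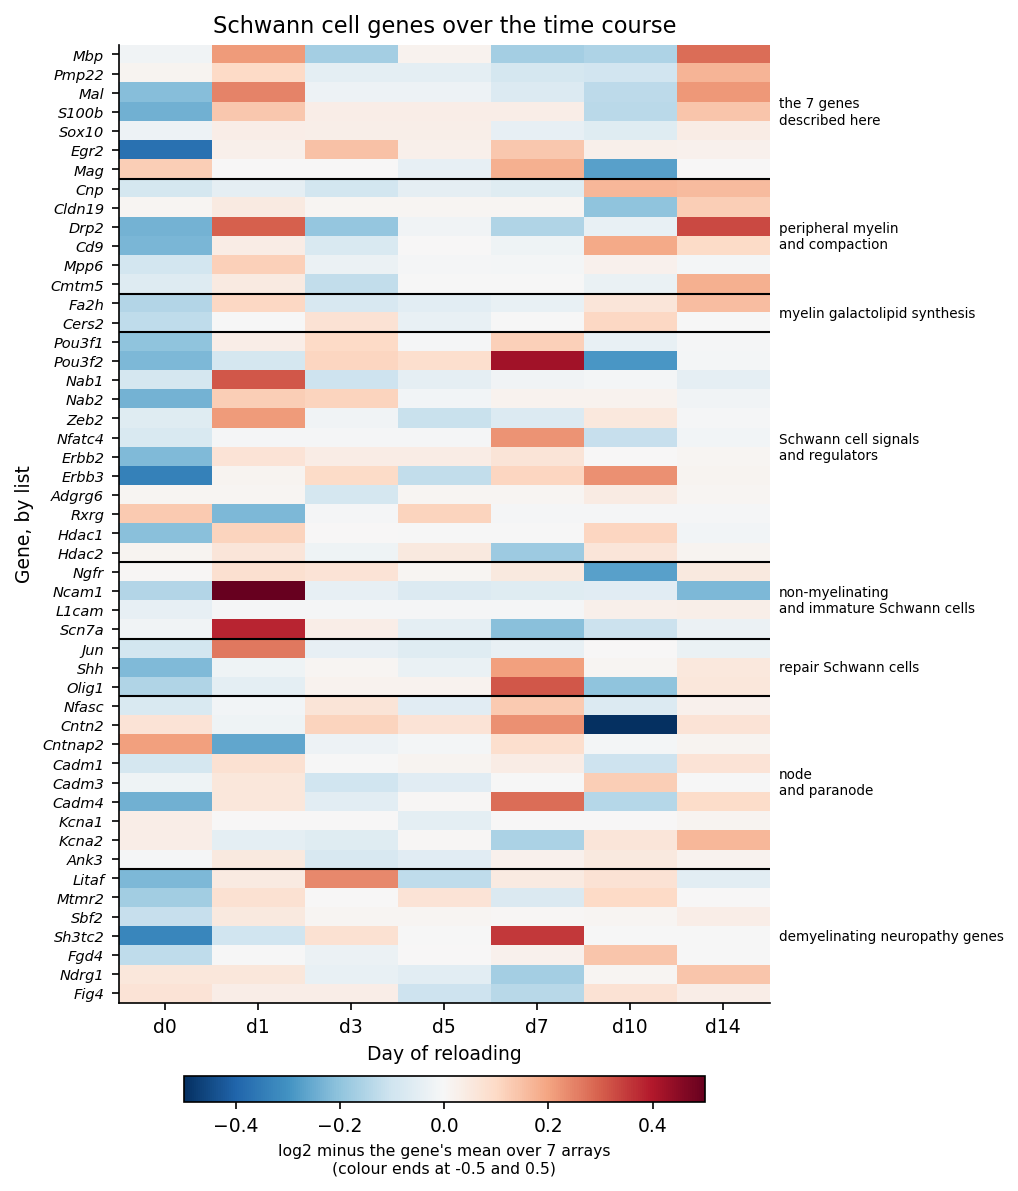
Each gene's log2 intensity minus its own mean over the 7 arrays, for the 7 genes and the 43 genes of the 7 Schwann cell lists past the filter (rows, by list) on the 7 arrays (columns). Mbp, Mal and Drp2 are red at d1 and d14, Ncam1 is red at d1 alone, and Egr2 is blue at d0.

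Signals and regulators of Schwann cells had medians between 0.06 and 0.14 over the 6 days, and 0 of the 16 measured genes had d1 and d14 as their 2 highest arrays. Erbb3, the neuregulin receptor of Schwann cells, had an intensity of 168.2 to 214.1 on the reloaded days, against 144.9 at d0. Nab2, a cofactor of Egr2, had 418.6 to 460.7 on those days, against 359.0 at d0. Pou3f1 (Oct6), which precedes Egr2 in development, had 153.3 to 171.1, against 137.0 at d0. The median of genes of non-myelinating and immature Schwann cells was 0.19 at d1, when Scn7a stood at 0.40, and -0.09 at d10, when Ngfr, the low-affinity neurotrophin receptor, had 134.6, against 163.1 at d0. Gap43, the growth-associated protein of axons and immature Schwann cells, had 80.4 at d10, against 103.7 at d0. Genes of repair Schwann cells had medians from -0.05 at d10 to 0.23 at d7, and Jun, their central regulator, stood at 0.36 at d1 and between 0.03 and 0.10 later.

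The slope over time was fitted with limma across 12103 genes (those past the filter, and Mag) on log2(day + 1), with Benjamini-Hochberg adjustment. None of the 7 genes passed over the 7 arrays. The slopes lay between -0.04 (Mag) and 0.08 (Egr2) per doubling of day + 1, and the lowest limma adjusted p was 0.478 (Egr2). The 95% interval for Mbp was -0.12 to 0.11 and for Pmp22 -0.07 to 0.06. Over all genes 0% passed in either direction, and 9.19% sloped upward and 1.45% downward at an unadjusted p of 0.05, where 0 of the 7 genes lay. Over the 6 reloaded days alone the 7 slopes lay between -0.05 (Mal) and -0.005 (Pmp22), with limma adjusted p from 0.869 to 0.988, and 0.157% of all genes rose and 0.198% fell. At an unadjusted p of 0.05, 6.88% of all genes sloped upward there and 6.39% downward, and 0 of the 7 genes did either. A straight slope does not describe a course that is high at both ends.

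The 6 reloaded days were also set against d0 in limma, where the single d0 array is assumed to vary as the others do. Egr2 was higher on the reloaded days by 0.44 ± 0.07 (SE) on the log2 scale, 1.35-fold, with a limma adjusted p of 0.0257 and all 6 days above d0. S100b stood at 0.28 ± 0.10 and all 6 days lay above d0, yet its limma adjusted p was 0.170. Mal stood at 0.25 ± 0.15 with a limma adjusted p of 0.395, also above d0 on 6 of 6 days. The estimates of Mbp (0.02), Pmp22 (-0.02), Sox10 (0.03) and Mag (-0.15) had limma adjusted p between 0.669 and 1. In the same test 3.23% of all genes were higher on the reloaded days and 0.768% lower. At an unadjusted p of 0.05 those shares were 18.7% and 3%, and Egr2 and S100b were the 2 of the 7 below it, both higher. The Egr2 call was lost without the d3, d5 or d14 array (limma adjusted p of 0.0540, 0.0518 and 0.0518) and with a stricter filter (0.218). At d0 Egr2 (123.4) and S100b (110.7) lay below the median of that array (129.9). Both thus passed the filter through reloaded arrays alone, the side on which they were higher. For each gene the spread in this fit comes from the 6 reloaded arrays alone. Egr2 had 162.7 on d1, d5 and d10, a tie whose origin was not tested, so its SE may be too small. With 1 array at d0, suspended muscle and that array cannot be told apart.

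**Figure D5:**
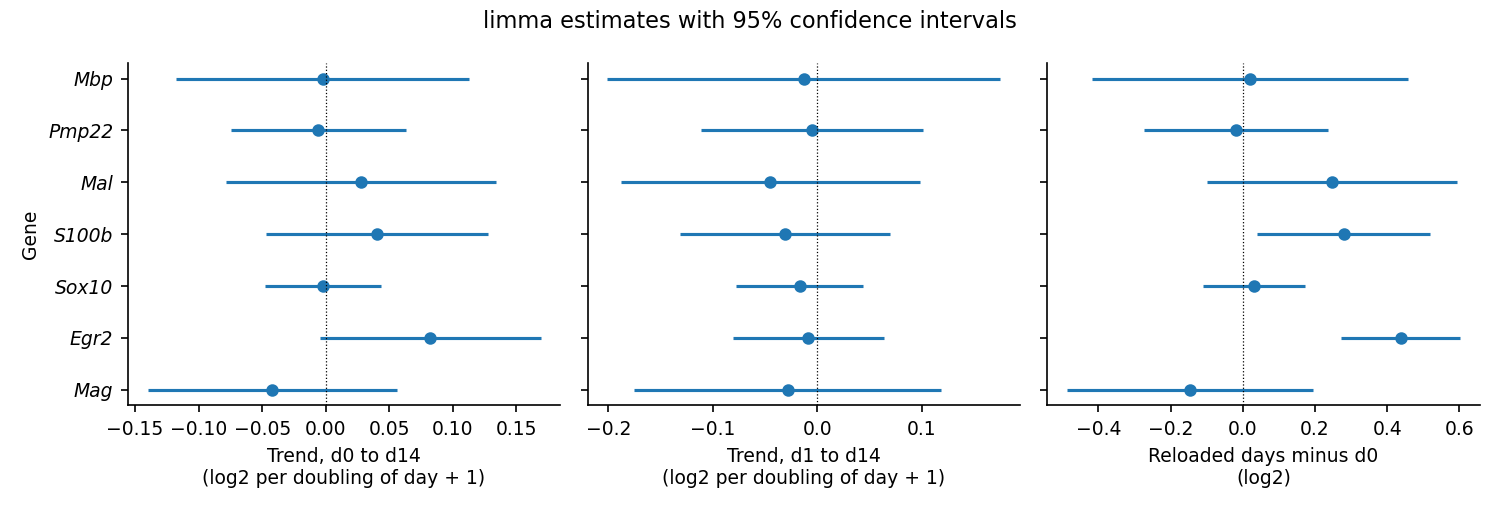
limma estimates (points) with 95% confidence intervals (lines) for the 7 genes: the slope over all 7 arrays, the slope over d1 to d14, and the reloaded days minus d0. In the slopes every interval includes 0; in the third panel those of Egr2 (0.27 to 0.60) and S100b (0.04 to 0.52) do not, and S100b did not pass after adjustment.

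The relatives of Egr2 were set beside it, Egr3 and Egr4 after their values were seen. Like Egr2, Egr4 passed the filter through reloaded arrays alone. Egr3 had 269.7 to 310.6 on the reloaded days, against 211.9 at d0, higher by 0.41 ± 0.08 (limma adjusted p 0.0365). Egr4 had 145.1 to 176.6, against 124.6 at d0 (0.35 ± 0.10, limma adjusted p 0.107). Egr1, an immediate early gene, had between 349.1 at d3 and 543.2 at d7, against 359.9 at d0 (limma adjusted p 0.506). Erbb3 stood at 0.39 ± 0.11 with a limma adjusted p of 0.102. Among relatives of Pmp22, Emp1 had 1750.7 to 2426.9 on the reloaded days, highest at d3, against 1390.1 at d0 (limma adjusted p 0.0724). Emp2, also chosen after its values were seen, had d1 (462.3) and d14 (426.3) highest, against 395.0 to 420.6 on the rest.

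The label was checked against markers of other cells. Of 10 genes of central myelin, made by oligodendrocytes, 2 passed the filter (Aspa and Hapln2) and the other 8 did not. Of all 19938 genes 12102 passed it, and of the 67 other Schwann cell genes 43 did. In perineurium, the sheath of nerve bundles, the median of 5 genes lay between -0.04 and 0.06 over the 6 days. The 8 adipocyte genes had a median of 0.24 at d1 and 0.43 at d14, with 0.15 to 0.27 between, and their summed intensity was 4476.1 to 5024.4 on the reloaded days, highest at d14, against 4041.4 at d0. Retn, the resistin gene, shared the order of the 5 genes, with 835.4 at d1 and 750.7 at d14, against 473.2 to 721.2 on the rest. Lep, the leptin gene, named for this order after its values were seen and below the filter, had 72.7 and 83.5 on those days, against 62.9 to 70.2. Adipoq, the adiponectin gene, was highest at d14 (383.9) and d10 (374.7). Mpzl2 of the perineurium list, also below the filter, had 97.4 at d1 and 95.7 at d14, against 82.2 to 91.2 on the rest. Fast fibre genes had medians between -0.09 and -0.01, and their summed intensity was 113755 to 120052 on the reloaded days, against 121022 at d0. Macrophage genes had their highest median at d1 (0.41) and stood at -0.06 at d14, and neutrophil genes were highest at d10 (2.39). The median of the 7 fibroblast genes lay between 0.12 at d1 and 0.66 at d5, but the genes were split. At d1 4 were above d0 and 3 below, and at d5 5 were above and 2 below. Their summed intensity was 14457.2 at d1 and 15751.5 at d5, against 15646.5 at d0. T cell genes had 1 of 6 past the filter, beside 12102 of all 19938 genes. Of 9 endothelial genes 7 were above d0 at d1 and all 9 on the later days, with Kdr, a receptor for vascular growth factor, higher by 0.63 ± 0.08 (limma adjusted p 0.0130). The part of all these cells in the levels of the 7 genes was not tested.

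The nearest courses over the 7 arrays were found by the root mean square difference of log2 values centred on each gene's mean. Nearest to the median course of the 6 filtered genes were Junb (0.037), Plekha4 (0.038), Pyroxd1 (0.045), Pou5f2 (0.047), Ahdc1 (0.049) and Thg1l (0.049). Plekha4 had 165.4 at d1 and 171.3 at d14, against 139.9 to 154.7 on the other arrays. The nearest single genes were Tmem199 and Gatm for Mbp, Elac2 and Mms19 for Pmp22, Inka1 and Junb for Mal, and Obi1 and Fgfr3 for S100b. Gatm, which makes the creatine precursor guanidinoacetate, had 806.7 at d1 and 783.1 at d14, against 561.4 to 683.4 on the rest. For Egr2 they were Ephb4 (0.018) and Adamts14 (0.025). Ephb4, an ephrin receptor of veins, had 310.1 to 343.7 on the reloaded days, against 237.8 at d0. Vps4a and Snx17 were nearest to Sox10, and Krtap17-1 and Ggt7 to Mag, with Ggt7 lowest at d10 (121.1) as Mag was.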

How the data were processed

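The members and the gene lists were chosen with earlier results of these data known. Per the labels' protocols, Trizol was used to extract the RNA, which was then biotinylated. The deposited values are linear intensities, 1 per transcript cluster and array, with like medians on all arrays. The submitters' processing notes name Partek and no step. The sources used here do not give the background correction, summarization, normalization or genome build.

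Intensities were put on the log2 scale without a pseudocount. Of 35556 rows, the platform annotation gave 21789 a single symbol, 1621 several and 12146 none, and rows with several named no gene. Ratios of 1 array to another have no test. Tests used limma 3.58.1 under R 4.3.3 (lmFit, then eBayes with trend = TRUE, two-sided), with Benjamini-Hochberg adjustment and calls at 0.05, and their error is the spread between pools of different days. Tested on simulated data of 12103 genes, the slope over 7 arrays recovered 44% of 50 genes changed by 0.5 on the log2 scale. It recovered 82% of 50 genes changed by 1. The run as a whole, with all changed genes in it, made 13 false calls. The same data held 50 genes changed by 2 and 50 changed by 3, of which 100% were recovered. The adjustment is made over all genes together, and recovery without these more strongly changed genes was not tested. The text names the 7 genes, 10 set Schwann cell genes where measured, up to 4 genes of largest range per Schwann cell list and up to 3 per other list, and the nearest genes. Genes outside this rule are Cldn19, Cmtm5, Cadm1, Sbf2, Emp2, Lep, Egr3 and Egr4, chosen after their values were seen. Alternatives were scaling, filter, pseudocount, row, fold, reference array, time scale and arrays left out. Python 3.11.15, numpy 2.4.6, pandas 2.3.3 and matplotlib 3.10.9 were used.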

Additional observations from a re-analysis of the deposited data

How the results depend on the processing

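The median log2 ratio of the 7 genes kept within the robust SD over genes of its value under the other scalings and the pseudocount of 16. The same held with the mean in place of the median, the filter and each gene left out. Taking the mean of a gene's rows could not move it, since each of the 7 genes had 1 row. That SD, 0.126 to 0.179, is larger than the medians of d3, d5, d7 and d10 themselves. A change of sign there still counted as kept: at d10 the median was -0.03 over the 7 genes and 0.02 over the filtered ones. The median moved by more with other reference arrays, as did ratios of single genes. Against the mean of the 6 other arrays the d14 median was 0.16, and against d14 the medians of d1, d3, d5 and d10 were -0.0028, -0.11, -0.11 and -0.27. None of the 7 genes passed 1.5-fold or 2-fold in any setting run. With none past 1.5-fold, the 2-fold bound, the pseudocount and the mean of rows could not have given any. No alternative brought any of the 7 genes past either trend test. The count of genes called for the reloaded days against d0 was 1 (Egr2), with 0 under the filter at percentile 75, and between 0 and 1 with 1 array left out. Egr2 passed in 8 of 12 alternatives, with estimates from 0.39 to 0.45 and limma adjusted p from 0.0109 to 0.218. All genes called in that test numbered 484, 1945 with no filter, 41 with the stricter filter, and 870, 97, 217 and 190 without d1, d3, d5 and d14. In the trend over the reloaded days they numbered 43, 3 with no filter, 160 with the stricter filter, 141 with quantile normalization, 0 and 1 on the scales of day and rank, and 0 to 3 with 1 array left out. The trend over 7 arrays called 0, with 1 under the stricter filter, 1 with equal array medians and 43 without d0. The shared order of d1 and d14 held in 4 of the 7 genes after quantile normalization, when Sox10 had d5 and d14 highest. With equal array medians it held in 5. The other settings run for it could not change the order. A pseudocount keeps the order of a gene's arrays, and the mean of a gene's rows changes nothing where each gene has 1 row. These settings were chosen for the order after the data were seen. No paired analysis was possible because each time point has 1 array and the labels give no replicate numbers. Detection above background could not be assessed, which limits what can be read from Mag, S100b, Egr2 and the other dim rows.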
